A study of Mus musculus with 12 samples.

Results

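The blood-brain barrier is formed by brain endothelial cells that are sealed to each other by tight junctions, carry nutrients by dedicated transporters and normally show few adhesion molecules to leukocytes. In lupus with neuropsychiatric disease, passage of antibodies and cells across this barrier is one of the routes that have been studied, and the cytokine TWEAK, which signals through the receptor Fn14, is known to act on endothelial cells. Described here are 10 genes of that barrier: the tight junction genes *Cldn5*, *Ocln* and *Tjp1*, the endothelial junction genes *Pecam1* and *Cdh5*, the transporter genes *Slc2a1*, *Abcb1a* and *Mfsd2a*, and the leukocyte adhesion genes *Vcam1* and *Icam1*. They were chosen by name from the 29608 genes with a probe on the array, and together they have 12 probes of 60 bases, 2 each for *Ocln* and *Vcam1* and 1 for each of the others.

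Hippocampal RNA was profiled in 3 phenotypes of 4 female adult mice each, about 12 weeks old and in diestrus. MRL/lpr mice carry a loss-of-function mutation of *Fas* on the MRL background and develop lupus-like disease. Fn14ko mice are MRL/lpr mice that lack *Tnfrsf12a*, the gene of the TWEAK receptor Fn14, from backcross generation 8, so that they too carry the *Fas* mutation, and MRL/+ mice (labelled MRL/MpJ) have the MRL background with neither change. The whole hippocampus was used, and in this bulk RNA fewer endothelial cells and less RNA per cell cannot be told apart. MRL/+ mice came from another breeder than the other phenotypes. The labels' source and tissue give the hippocampus, whereas their free-text description also mentions the cortex.

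Mice were hybridized in pairs within a phenotype, replicates 1 and 3 with Cy3 and replicates 2 and 4 with Cy5, on 6 arrays in all, a number that limits the precision. Since the 2 arrays of a phenotype share a slide and a scan, effects of slide or scan and of phenotype cannot be told apart. A level is the background-subtracted intensity of a gene's spots divided by the median of its channel over the 10877 spots that were valid in all 12 samples, so that a level of 1 is the median spot. Levels of different probes are not on a common scale, and they are compared here between mice only. Signal differed widely between the channels. The channel median was 4545 and 1715 intensity units in MRL/lpr replicates 1 and 2, 170 and 74.7 in replicates 3 and 4, 2127 to 4383 in Fn14ko, and 3676, 684, 3627 and 942 in MRL/+ replicates 1 to 4. MRL/lpr replicates 3 and 4, which share an array, are called the dim array below. The software called 25.2% and 19.6% of the probe spots well above background on it, compared with 60.8% to 66.0% on the other MRL/lpr array. Fits without the dim array scale each channel over the 25621 spots valid in the other 10 mice and average all probes of a gene that are valid there. Log2 differences of Fn14ko from MRL/+ therefore move too, although none of these mice are on that array, as for *Cldn5* from 0.08 to 0.33.

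A second set of channels also stood apart. On each array 153 control spots, designed to match no transcript, gave a background reading that is called the negative-control level, with a median foreground of 208 and 211 in the Cy5 channels of MRL/+ (replicates 2 and 4), compared with 56.8 to 90.6 in the other Cy5 channels and 33.2 to 45.2 in Cy3. Expressed as a level, the negative controls lay at 0.253 and 0.188 in those MRL/+ mice and at 0.325 in MRL/lpr replicate 4, compared with 0.00104 to 0.0687 in the other 9 mice. Levels at or under these values in the 3 channels are not resolved from spots without a target. Of the 10 genes, 7 had a spot valid in all 12 samples (*Cldn5*, *Ocln*, *Tjp1*, *Slc2a1*, *Mfsd2a*, *Vcam1* and *Icam1*), and *Pecam1*, *Cdh5* and *Abcb1a* were read from the same data without the filter on dim spots.

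**Figure D1:**
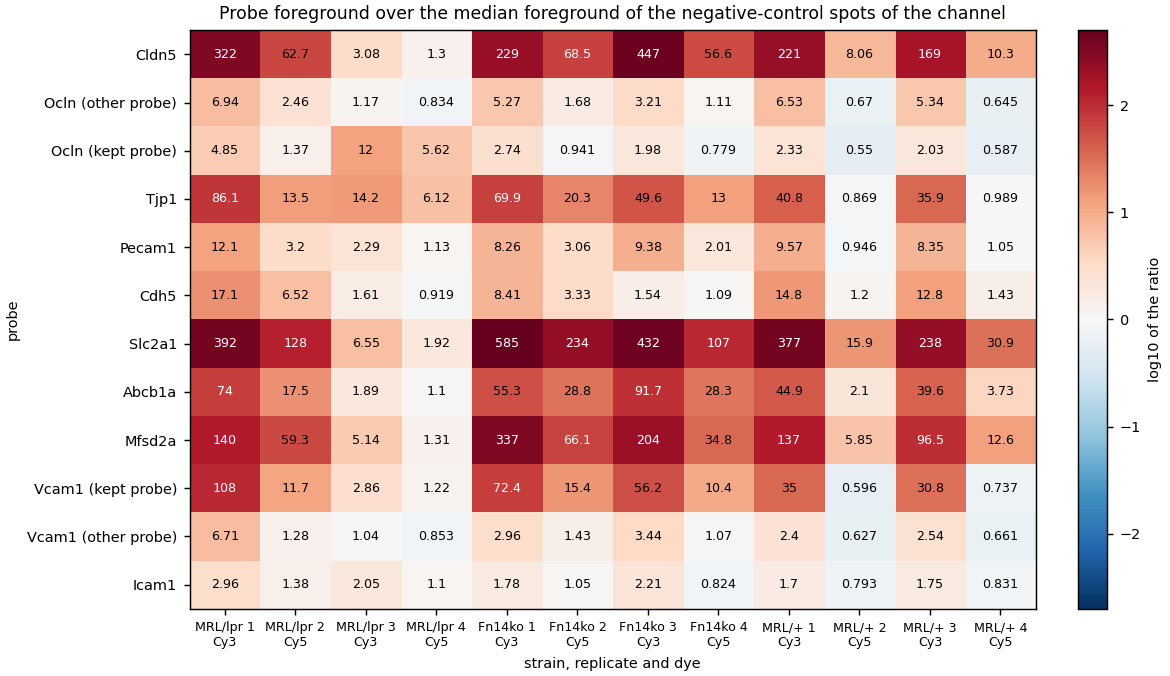
Foreground of each of the 12 probes relative to the median of that channel's negative controls, by strain, replicate and dye, with colour on a log10 scale. *Slc2a1*, *Cldn5* and *Mfsd2a* lie above the 95th percentile of the negative controls in the 10 mice outside the dim array but not on it, whereas *Icam1* lies at 0.793 to 1.38 times their median in the 6 Cy5 channels.

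The genotype labels were checked first. *Tnfrsf12a* was at 0.177, 0.160, 0.189 and 0.151 in Fn14ko, at 0.439, 0.307, 0.241 and 0.247 in MRL/lpr and at 0.283, 0.629, 0.503 and 0.502 in MRL/+. Every Fn14ko mouse lay below every other mouse, but the probe was still well above background in all 4 of them. On the dim array it was not, at 1.88 and 0.958 times the negative-control median, so that the order against those 2 MRL/lpr mice is not resolved. Where the deletion lies relative to this probe is not given in the sources used here. *Fas* was at 0.0384, 0.0281, 0.0538 and 0.253 in MRL/lpr, 0.0415 to 0.0571 in Fn14ko and 0.0983, 0.226, 0.0487 and 0.213 in MRL/+, and its groups overlapped.

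Hippocampal neuron markers were detected in every mouse. Of 8 hippocampal neuron markers, 6 to 8 were well above background in each mouse (the brightest probe signal was that of the synaptic vesicle gene *Syt1*). Endothelial RNA was present as well. Of 27 genes of endothelial identity, 24 to 26 were well above background in each Fn14ko mouse and on the brighter MRL/lpr array, but only 8 and 7 on the dim array and 15 and 16 in the Cy5 channels of MRL/+. The brightest probe signal among them was that of *Egfl7*, which encodes an endothelial secreted factor, and probe signal does not rank transcripts by abundance. *Erg*, an endothelial transcription factor, was well above background in no mouse.

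No barrier gene passed the test between any pair of phenotypes. In MRL/lpr against MRL/+, 0 of the 7 filtered genes had a limma adjusted p under 0.05, where 0.079% of all filtered genes did, and 0 of the 3 unfiltered ones, where 0.358% did. In MRL/lpr against Fn14ko the counts were likewise 0 of 7 (0.0451% of all genes) and 0 of 3 (0.179%), and in Fn14ko against MRL/+ they were 0 of 7 and 0 of 3, with 0.0% of all genes called in either set. At an unadjusted p under 0.05 limma gave 1 of the 10 genes in MRL/lpr against MRL/+ (16.4% of all filtered and 11.5% of all unfiltered genes), 4 in MRL/lpr against Fn14ko (17.7% and 17.1%) and 1 in Fn14ko against MRL/+ (3.51% and 3.05%). The composite criterion of the study's methods, an expression ratio beyond a gene's own threshold together with the methods' t-test, was met by 0 of the 7 filtered genes in each comparison, and by 4.78%, 3.85% and 5.95% of all filtered genes in the same order. The counts moved with the treatment of the arrays. Without the array block, which treats mice of 1 array as independent, limma called *Vcam1* in MRL/lpr against MRL/+ and *Cdh5* in MRL/lpr against Fn14ko, and 0 of 10 genes in Fn14ko against MRL/+, where 9.17%, 3.98% and 0.519% of all filtered and 2.46%, 6.83% and 0.145% of all unfiltered genes were called. Without the dim array 1, 1 and 5 genes were called, beside 15.7%, 9.12% and 21.1% of filtered and 11.8%, 9.23% and 13.9% of unfiltered genes. MRL/lpr is then 2 mice of 1 array, and no block was used, so that mice of 1 array are treated as independent there too. With the negative-control median subtracted as well, 0 of 10 were called in each comparison, beside 11.7%, 2.04% and 4.21% of filtered and 12.8%, 7.62% and 0.196% of unfiltered genes. These comparisons share mice, so that their values are given side by side and not as independent evidence.

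**Figure D2:**
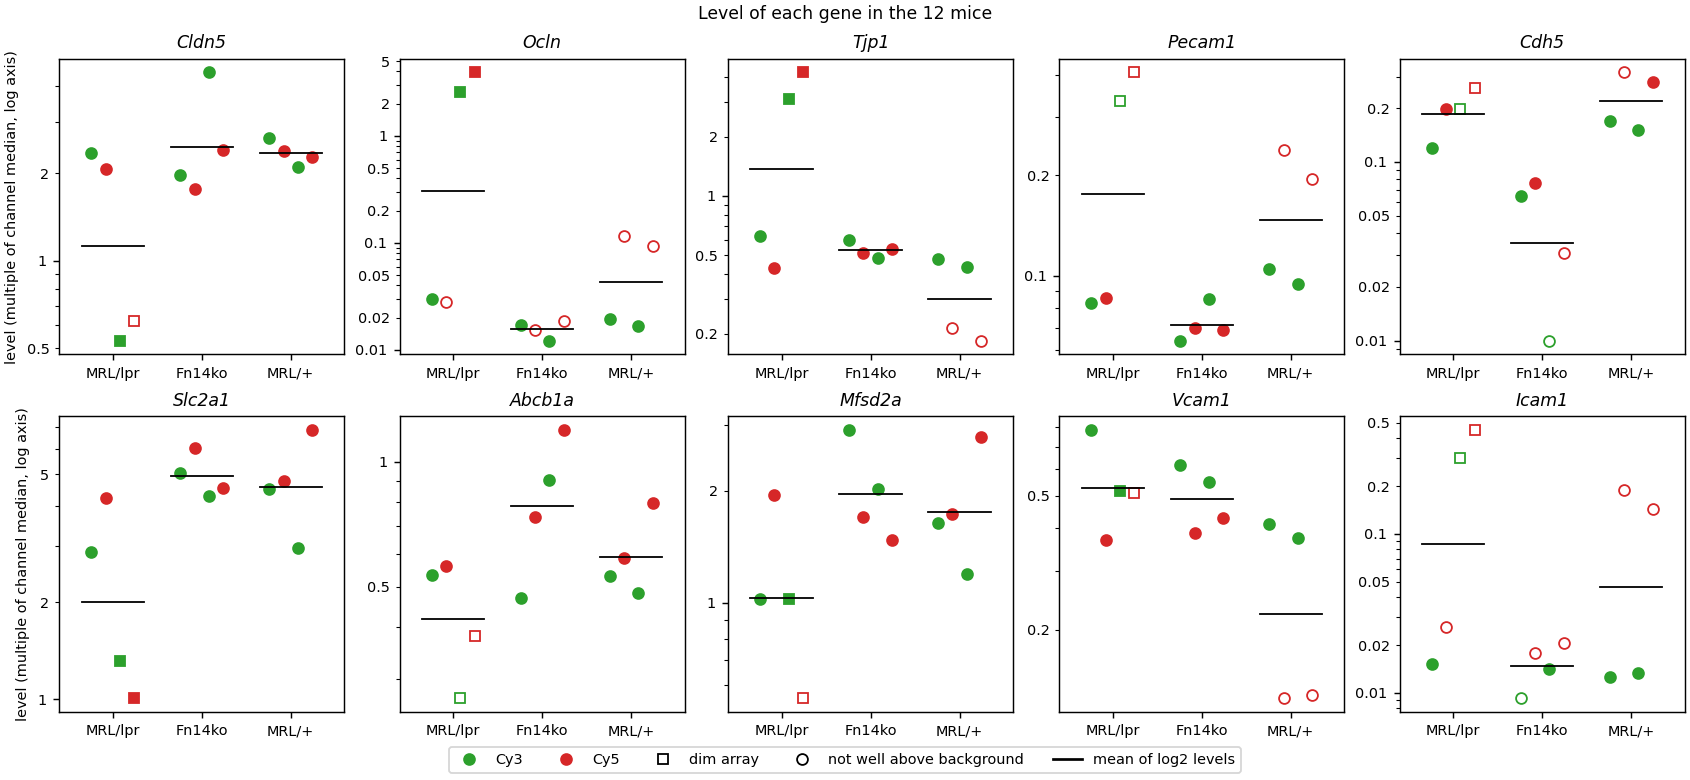
Level of each of the 10 genes in the 12 mice, as a multiple of the channel median on a log axis. Green is Cy3, red is Cy5, squares are the dim array, open symbols were not well above background, and the line is the mean of the log2 levels; in *Cldn5*, *Slc2a1*, *Ocln* and *Tjp1* the 2 squares lie apart from the other MRL/lpr mice.

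*Cldn5* encodes claudin-5, the main sealing protein of brain endothelial tight junctions. Its probe (mm9 chr16:18778046-18778105, plus strand) read 2.35, 2.06, 0.530 and 0.622 in MRL/lpr, 1.98, 1.76, 4.44 and 2.40 in Fn14ko and 2.64, 2.39, 2.09 and 2.27 in MRL/+. The 2 mice of the dim array were the lowest of all 12, and the other MRL/lpr mice lay within the range of Fn14ko, with one inside and one just below that of MRL/+. With all mice, the log2 fold change of MRL/lpr against MRL/+ was -1.06 ± 0.58 (SE, limma adjusted p = 0.342, exact permutation p = 0.114), and without the dim array it was 0.07 ± 0.29 (adjusted p = 0.874). Against Fn14ko it was -1.14 ± 0.58 with all mice (adjusted p = 0.302) and -0.25 ± 0.29 without the dim array. Fn14ko and MRL/+ differed by 0.08 ± 0.58, and their groups overlapped.

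*Tjp1* encodes the scaffold ZO-1, which ties claudins and occludin to the actin cytoskeleton. Its probe (mm9 chr7:72441126-72441185, minus strand) read 0.625, 0.430, 3.10 and 4.22 in MRL/lpr, 0.598, 0.516, 0.486 and 0.536 in Fn14ko and 0.481, 0.214, 0.438 and 0.184 in MRL/+. On the dim array the levels were thus higher than in any other mouse, the opposite of *Cldn5* on the same array, and all 4 Fn14ko mice lay within a narrow band. MRL/lpr exceeded MRL/+ by 2.18 ± 0.80 on the log2 scale (adjusted p = 0.294), and by 0.94 ± 0.34 without the dim array (adjusted p = 0.0821). Fn14ko lay above MRL/+ in every mouse, by 0.82 ± 0.80 (adjusted p = 0.998, exact permutation p = 0.0286, the smallest that 4 mice against 4 can give). Without the dim array, where the SE was smaller and the channels were scaled anew, that difference was 1.07 ± 0.28 with an adjusted p of 0.0233. It came mainly from Cy5, where the mean difference was 1.40, compared with 0.23 in Cy3, and the MRL/+ foreground in Cy5 was 0.869 and 0.989 times the negative-control median. With the Cy5 mice of MRL/+ left out it was 0.24 ± 0.83. With the negative-control median subtracted in place of the local background it was 2.96 ± 2.03 with all mice and 4.03 ± 1.30 without the dim array (adjusted p = 0.0758). That subtraction put the Cy5 mice of MRL/+ at a floor of 1% of the channel median, so that the size of these values depends on the floor.

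*Ocln* encodes occludin, a transmembrane protein of tight junctions, and its 2 probes disagreed. The probe that passed the filter (mm9 chr13:101267384-101267443, minus strand) read 0.0298, 0.0281, 2.56 and 3.91 in MRL/lpr, 0.0171, 0.0155, 0.0122 and 0.0186 in Fn14ko and 0.0193, 0.116, 0.0167 and 0.0930 in MRL/+. The other probe (mm9 chr13:101268529-101268588, minus strand) read 0.0459, 0.0604, 0.0946 and 0.233 in MRL/lpr, 0.0236 to 0.0381 in Fn14ko and 0.0580 to 0.161 in MRL/+. Only the first probe reached levels above 2 on the dim array, and outside that array both were dim in every mouse. The first probe gave a log2 difference of MRL/lpr from Fn14ko of 4.27 ± 1.90 (limma adjusted p = 0.278, exact permutation p = 0.0286). Without those 2 mice its difference was 1.04 in Cy3 and 0.72 in Cy5. The fit without the dim array averages both probes and gave 0.70 ± 0.37. For Fn14ko against MRL/+ the first probe gave -1.46 ± 1.90 with all mice, and both probes together gave -1.31 ± 0.31 without the dim array (adjusted p = 0.0166). Within dyes the first probe differed by -0.32 in Cy3 and -2.61 in Cy5, where its MRL/+ foreground was 0.550 and 0.587 times the negative-control median. With the dim array left out and the negative-control median subtracted in place of the local background, the value of both probes turned to 0.26 ± 0.68. The Cy5 mice of MRL/+ were then at the floor of 1% of the channel median.

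**Figure D3:**
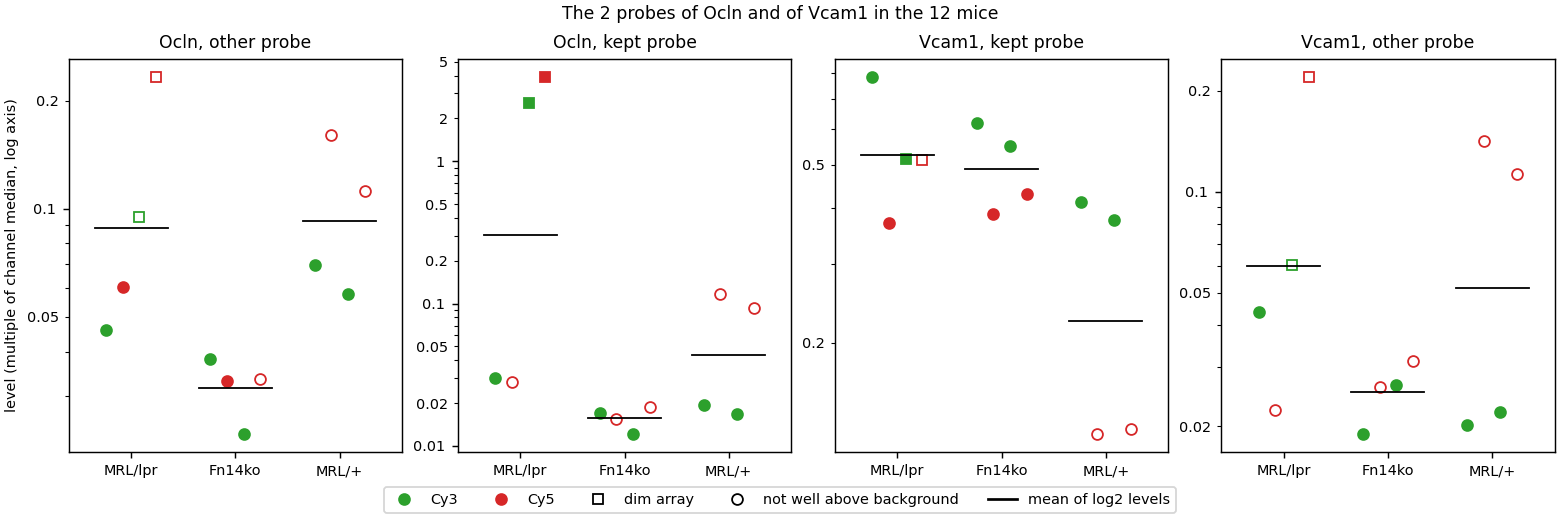
Levels of the 2 probes of *Ocln* and of *Vcam1* in the 12 mice, as multiples of the channel median on a log axis, with symbols by dye, array and background call. The kept *Ocln* probe reaches 2.56 and 3.91 on the dim array, where its other probe reads 0.0946 and 0.233.

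The endothelial junction genes were dim. *Pecam1* encodes CD31, an adhesion molecule of endothelial contacts and leukocytes, and *Cdh5* encodes VE-cadherin, the adherens junction cadherin that is specific to endothelium. The probes of *Pecam1* and *Icam1* and the other probe of *Vcam1* are shown because readings close to the negative controls rest on them, and each holds at least 1 reading frame without a stop codon. They were copied from the deposited files, are written 5′ to 3′, and have a GC content of 50%, 41.7% and 40.0%, compared with a median of 41.7% over all probes on the array.
Pecam1 (mm9 chr11:106540864-106540923, minus strand): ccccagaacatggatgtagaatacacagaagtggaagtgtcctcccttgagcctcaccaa
Icam1 (mm9 chr9:20832290-20832349, plus strand): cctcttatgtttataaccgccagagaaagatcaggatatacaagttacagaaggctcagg
Vcam1, other probe (mm9 chr3:115828953-115829012, minus strand): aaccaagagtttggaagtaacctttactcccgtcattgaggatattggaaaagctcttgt

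*Cdh5* gave the lowest levels in Fn14ko. Its probe (mm9 chr8:106668159-106668218, plus strand) read 0.120, 0.198, 0.196 and 0.257 in MRL/lpr, 0.0645, 0.0763, 0.01 and 0.0310 in Fn14ko and 0.170, 0.316, 0.151 and 0.281 in MRL/+. The value of Fn14ko replicate 3 is the floor of 1% of the channel median, since its signal was 0.00583. All 4 Fn14ko mice lay below all 8 others, but on the dim array and in the Cy5 mice of MRL/+ the foreground was only 1.61, 0.919, 1.20 and 1.43 times the negative-control median. In Fn14ko replicates 3 and 4, which were not well above background, it was 1.54 and 1.09 times that median. MRL/lpr exceeded Fn14ko by 2.40 ± 0.73 on the log2 scale (adjusted p = 0.134, exact permutation p = 0.0286), and Fn14ko against MRL/+ had a log2 fold change of -2.63 ± 0.73 (adjusted p = 0.604, exact permutation p = 0.0286). Within dyes the difference from MRL/+ was -2.66 in Cy3 and -2.61 in Cy5. With the dim array left out and the negative-control median subtracted, the adjusted p was 0.304 and 0.182. With the dim array left out alone it was 0.0442 against MRL/lpr and 0.00748 against MRL/+, where 9.23% and 13.9% of all unfiltered genes were called. With a floor of 5% the differences shrank to 1.65 ± 0.62 and -1.88 ± 0.62. Over the 30 settings tried, Fn14ko stayed below MRL/lpr by 0.66 to 3.01 and below MRL/+ with a log2 fold change between -3.12 and -1.38, and the adjusted p ranged from 5.42e-06 to 0.606 and from 1.30e-06 to 1.0. The probe was well above background in 2, 2 and 3 mice of MRL/lpr, Fn14ko and MRL/+.

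*Pecam1* read 0.0831, 0.0858, 0.334 and 0.407 in MRL/lpr, 0.0639, 0.0696, 0.0854 and 0.0688 in Fn14ko and 0.105, 0.239, 0.0949 and 0.196 in MRL/+. Apart from the dim array and the Cy5 mice of MRL/+, where its foreground was 2.29, 1.13, 0.946 and 1.05 times the negative-control median, the 8 other mice lay between 0.0639 and 0.105. Fn14ko lay below MRL/+ in every mouse, with a log2 fold change of -1.04 ± 0.73 (adjusted p = 0.656, exact permutation p = 0.0286) and of -0.79 ± 0.21 without the dim array (adjusted p = 0.0271). Within dyes it was -0.43 in Cy3 and -1.64 in Cy5. With the negative-control median subtracted in place of the local background, this turned to 0.85 ± 0.97, with MRL/+ replicate 2 at the floor.

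**Figure D4:**
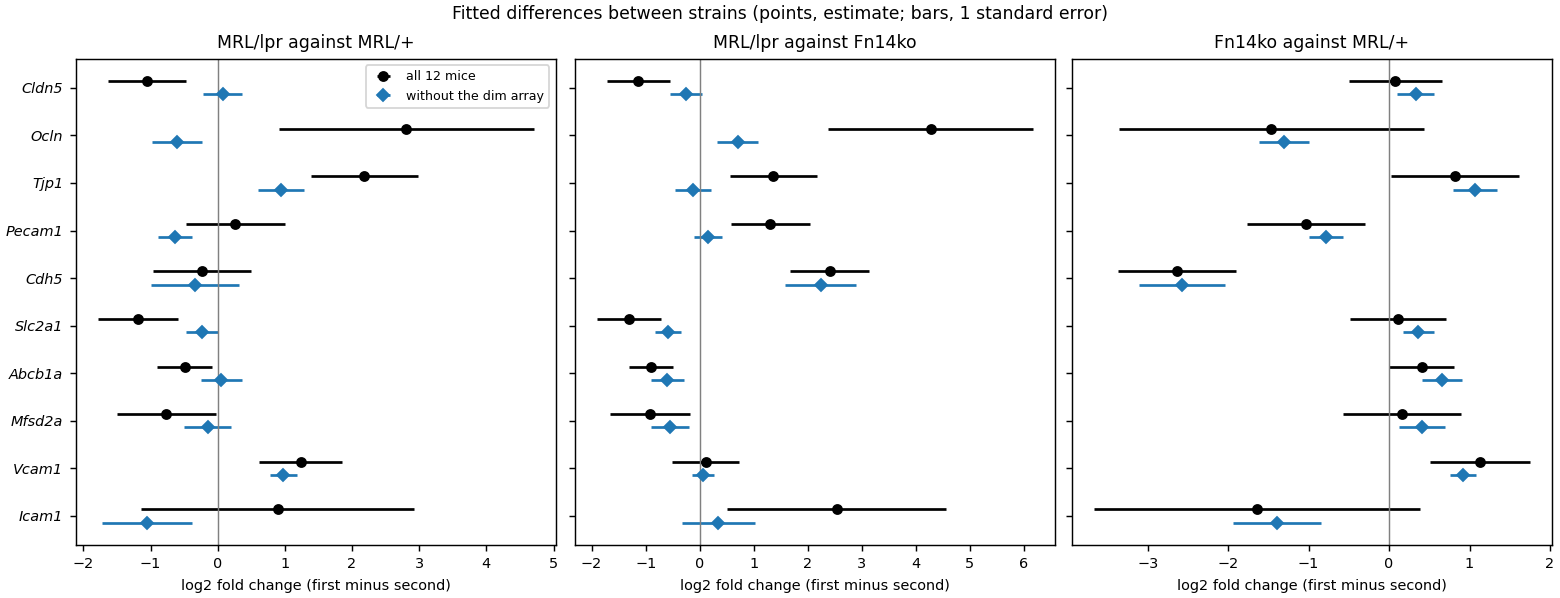
Fitted log2 fold changes of the 10 genes in the 3 comparisons, first phenotype minus second, with all 12 mice (black circles) and without the dim array (blue diamonds). Bars are 1 standard error. For *Ocln* and *Vcam1* the circles show the kept probe and the diamonds the average of both probes. Of the genes that differ from 0 by more than their bar with all mice, *Cldn5* against MRL/+ moves to 0.07 without the dim array, and *Cdh5* in Fn14ko against MRL/+ stays at -2.58.

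*Slc2a1* encodes GLUT1, the glucose transporter of the barrier. Its probe (mm9 chr4:118809864-118809923, plus strand) was well above background in all 12 mice and read 2.86, 4.24, 1.31 and 1.01 in MRL/lpr, 5.05, 6.05, 4.29 and 4.55 in Fn14ko and 4.51, 4.77, 2.95 and 6.87 in MRL/+. On the dim array, however, it did not exceed the 95th percentile of the negative controls. Every MRL/lpr mouse lay below every Fn14ko mouse, although the nearest pair, at 4.24 and 4.29, was close, whereas MRL/lpr and MRL/+ overlapped. The log2 fold change of MRL/lpr against Fn14ko was -1.30 ± 0.60 (adjusted p = 0.280, exact permutation p = 0.0286) and -0.59 ± 0.24 without the dim array (adjusted p = 0.162). Against MRL/+ it was -1.19 ± 0.60 (adjusted p = 0.321) and -0.23 ± 0.24. Fn14ko and MRL/+ differed by 0.11 ± 0.60.

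Of the 10 genes, 3 were without overlap between MRL/lpr and Fn14ko (*Ocln*, *Cdh5* and *Slc2a1*) and 3 between Fn14ko and MRL/+ (*Tjp1*, *Pecam1* and *Cdh5*), with 0 between MRL/lpr and MRL/+. Among all filtered genes 21.5%, 19.9% and 16.1% had no overlap in these comparisons, and among all unfiltered genes 18.4%, 10.7% and 7.64%. Over the 10 genes and 3 comparisons 30 exact tests were made, two-sided and unadjusted, and they treat mice as independent although 2 share each array.

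*Mfsd2a* encodes a lipid transporter of brain endothelium that also restrains vesicle transport across the cell. Its probe (mm9 chr4:122624182-122624241, minus strand) read 1.02, 1.95, 1.02 and 0.555 in MRL/lpr, 2.91, 1.70, 2.02 and 1.47 in Fn14ko and 1.63, 1.73, 1.19 and 2.79 in MRL/+. The 3 groups overlapped in every pair, with MRL/lpr replicate 2 in the range of both others. MRL/lpr against MRL/+ gave -0.76 ± 0.74 (adjusted p = 0.569) and, without the dim array, -0.15 ± 0.35.

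*Abcb1a* encodes the P-glycoprotein drug efflux pump of rodent brain capillaries. Its probe (mm9 chr5:8748075-8748134, plus strand) read 0.535, 0.560, 0.270 and 0.381 in MRL/lpr, 0.471, 0.736, 0.905 and 1.19 in Fn14ko and 0.531, 0.587, 0.485 and 0.797 in MRL/+. Fn14ko replicates 2 to 4 were above all MRL/lpr mice, and replicate 1 was within their range. MRL/lpr against Fn14ko was -0.90 ± 0.40 on the log2 scale (adjusted p = 0.267, exact permutation p = 0.0857) and -0.60 ± 0.31 without the dim array (adjusted p = 0.277), and Fn14ko against MRL/+ was 0.41 ± 0.40 (adjusted p = 0.656). Across the 3 transporters the direction was the same, with Fn14ko highest and MRL/lpr lowest in mean log2 level, but none of these differences passed the test. The order of Fn14ko and MRL/+ turned for *Slc2a1* and *Mfsd2a* without the dim array and with negative controls subtracted, to -0.29 and -0.19, and that of MRL/lpr and MRL/+ turned for *Abcb1a* without the dim array, to 0.06.

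*Vcam1* encodes the endothelial ligand of the integrin that *Itga4* and *Itgb1* encode, and it is induced by inflammatory cytokines. Its kept probe (mm9 chr3:115813216-115813275, minus strand) read 0.785, 0.370, 0.516 and 0.511 in MRL/lpr, 0.619, 0.387, 0.551 and 0.429 in Fn14ko and 0.412, 0.125, 0.376 and 0.128 in MRL/+. Within each dye all mice of MRL/lpr and Fn14ko lay above both MRL/+ mice, although across dyes the groups overlapped. MRL/lpr exceeded MRL/+ by 1.24 ± 0.62 on the log2 scale (adjusted p = 0.322, exact permutation p = 0.0857), and Fn14ko exceeded it by 1.13 ± 0.62 (adjusted p = 0.998, exact permutation p = 0.0571). MRL/lpr and Fn14ko differed by 0.11 ± 0.62. When mice of one array were treated as independent, the difference of MRL/lpr from MRL/+ had a limma adjusted p of 0.0305 with 9.17% of all filtered genes called. The fit without the dim array averages both *Vcam1* probes, uses no block and has MRL/lpr on 1 array. Both differences from MRL/+ passed there, at 0.98 ± 0.20 (adjusted p = 0.00995) and 0.92 ± 0.16 (adjusted p = 0.00608), with 15.7% and 21.1% of all genes called.

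The size of the *Vcam1* difference differed by dye. Fn14ko exceeded MRL/+ by 0.57 in Cy3 and by 1.69 in Cy5, and in Cy5 the MRL/+ foreground was 0.596 and 0.737 times the negative-control median, so that the Cy5 levels of MRL/+ are not resolved from spots without a target. With the Cy5 mice of MRL/+ left out, the differences of MRL/lpr and Fn14ko from MRL/+ were 0.69 ± 0.62 (adjusted p = 0.612) and 0.58 ± 0.62 (adjusted p = 1.0). The direction of MRL/lpr against MRL/+ turned with the processed signal of the scanner software, to -0.35. Over the 29 settings tried, the difference from MRL/+ ranged from -0.35 to 3.57 for MRL/lpr and from 0.35 to 3.51 for Fn14ko. Subtracting the negative-control median puts the Cy5 mice of MRL/+ at the floor, so that the size of the difference then depends on the floor. The other *Vcam1* probe was well above background in 5 of 12 mice and showed no such order, with levels of 0.0437, 0.0223, 0.0605 and 0.220 in MRL/lpr, 0.0190 to 0.0313 in Fn14ko and 0.0202, 0.142, 0.0220 and 0.113 in MRL/+.

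*Icam1*, the ligand of the leukocyte integrin that *Itgal* and *Itgb2* encode, was close to the detection limit. Its probe read 0.0153, 0.0261, 0.303 and 0.452 in MRL/lpr, 0.00926, 0.0178, 0.0142 and 0.0206 in Fn14ko and 0.0126, 0.190, 0.0133 and 0.144 in MRL/+. It was well above background in 1, 1 and 2 mice of the 3 phenotypes, and the 4 highest readings came from the dim array and the Cy5 mice of MRL/+, at 0.793 to 2.05 times the negative-control median. In the Cy3 mice outside the dim array the range was 0.00926 to 0.0153. No order of the phenotypes was detectable, and the log2 fold changes were 0.89 ± 2.03, 2.54 ± 2.03 and -1.64 ± 2.03 in MRL/lpr against MRL/+, MRL/lpr against Fn14ko and Fn14ko against MRL/+.

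The relative expression variability (REV) of the methods, which relates the SD of a gene's spots over the 4 mice to their mean with a small-sample coefficient, was computed for the 7 filtered genes. For *Cldn5* the REV was 146% in MRL/lpr, 99.7% in Fn14ko and 21.0% in MRL/+. For *Tjp1* it was 192%, 19.0% and 98.9%, and for *Slc2a1* 136%, 33.4% and 72.6%. The medians over all filtered genes were 104%, 32.3% and 57.9%, so that each of these genes was more variable than the median gene in MRL/lpr. In each of them the dim array stood apart from the other MRL/lpr array, as with *Cldn5* at 0.530 and 0.622 compared with 2.35 and 2.06. The REV of MRL/lpr thus includes the difference between its arrays. *Tjp1* in Fn14ko and *Cldn5* in MRL/+ lay below the median of their phenotype. *Vcam1* went the other way, with 68.3% in MRL/lpr, 46.3% in Fn14ko and 128% in MRL/+. In the same order *Ocln* had 254%, 37.5% and 178%, *Icam1* 232%, 67.8% and 217%, and *Mfsd2a* 110%, 67.0% and 79.1%.

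Other genes of the barrier were examined in 8 lists, of tight junction partners, transporters, leukocyte adhesion and endothelial activation, integrins that bind the adhesion molecules, endothelial identity, Wnt signalling, caveolae and basement membrane. Of their 122 genes, 46 had a spot valid in all 12 samples, and 0 of these passed the limma test in any of the comparisons with the array as a block, where 0.079%, 0.0451% and 0.0% of all genes did. At an unadjusted p under 0.05 limma gave 9, 10 and 2 of them, beside 16.4%, 17.7% and 3.51% of all filtered genes. Without the block, 1 was higher and 5 were lower in MRL/lpr than in MRL/+ (9.17% of all genes called), 1 was higher and 2 were lower than in Fn14ko (3.98%), and 0 were called between Fn14ko and MRL/+ (0.519%). Without the dim array 113 could be tested, with 15, 12 and 25 called in these comparisons, where 15.7%, 9.12% and 21.1% of all genes were.

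**Figure D5:**
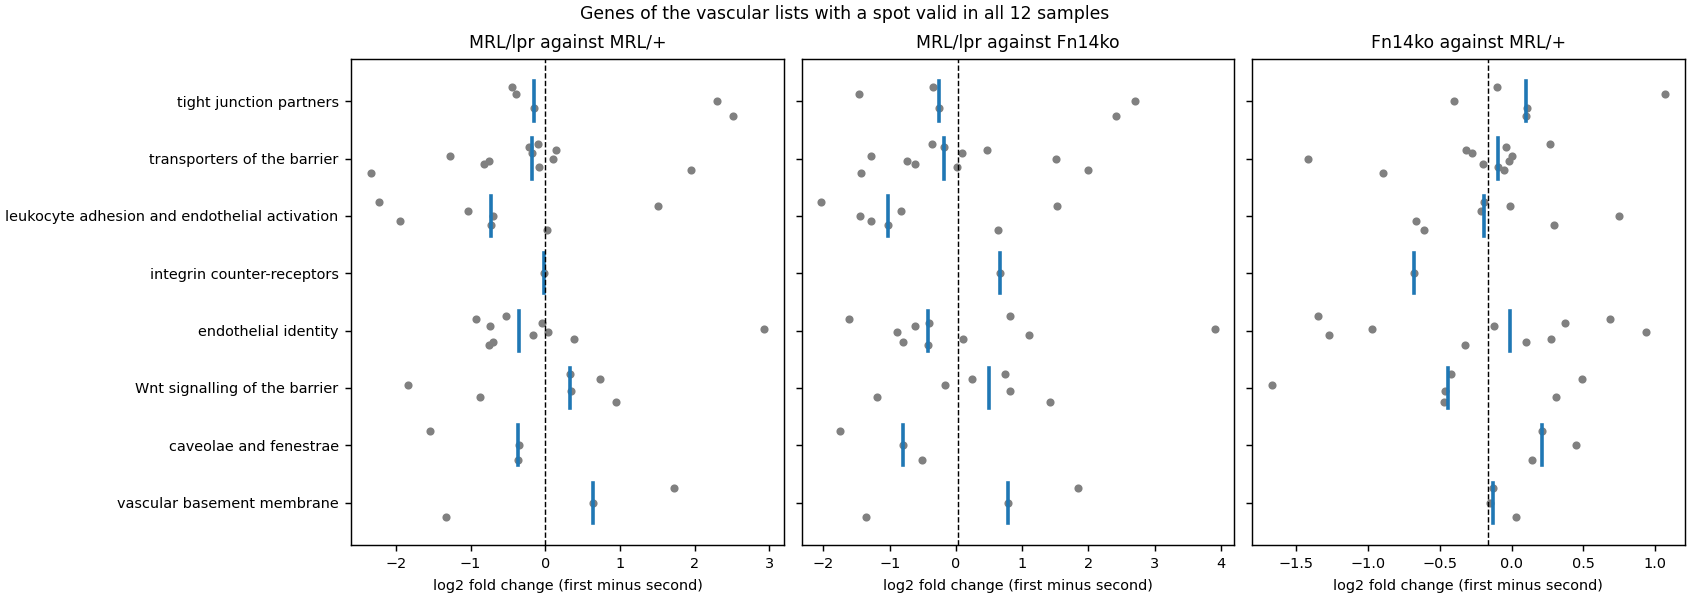
Log2 fold change of each gene of the 8 vascular lists with a spot valid in all 12 samples (grey), with the median of the list (blue) and of all filtered genes (dashed). The medians of endothelial identity lie at -0.35, -0.42 and -0.01 from left to right, and the points of most lists fall on both sides of 0.

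For endothelial identity the median log2 fold change over 10 genes was -0.35 in MRL/lpr against MRL/+, -0.42 against Fn14ko and -0.01 in Fn14ko against MRL/+, beside -0.01, 0.03 and -0.16 over all filtered genes. Over the 26 genes measured outside the dim array these medians were -0.12, -0.13 and 0.00, beside -0.10, -0.04 and -0.07. The summed level of its 27 genes was 15.7, 14.6, 12 and 14.5 in MRL/lpr, 15.3, 16.5, 20.5 and 16.6 in Fn14ko and 15.5, 20.9, 14.2 and 20.1 in MRL/+, and the groups overlapped. Such sums weigh bright probes most and include the negative-control level of dim ones, so that they say little of a dim gene such as *Cdh5*.

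Among tight junction partners, the median over 5 genes was -0.16, -0.26 and 0.10 in MRL/lpr against MRL/+, MRL/lpr against Fn14ko and Fn14ko against MRL/+. Outside the dim array, over 11 genes, it turned to 0.18 in MRL/lpr against MRL/+ and was -0.06 and 0.36 in the other comparisons. *Jam3*, a junctional adhesion molecule, read 0.50, 0.573, 0.259 and 0.433 in MRL/lpr, 1.29, 1.03, 1.44 and 0.956 in Fn14ko and 0.781, 0.466, 0.564 and 0.464 in MRL/+. All Fn14ko mice lay above all other mice, but on the dim array the probe was not well above background. MRL/lpr against Fn14ko was -1.46 ± 0.54 (adjusted p = 0.276, and 0.0245 without the block), and Fn14ko against MRL/+ was 1.07 ± 0.54 (adjusted p = 0.998). *Cgnl1* and *Afdn* were well above background in no mouse.

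Among the other transporters the median over 11 genes was -0.18, -0.18 and -0.10, and over 18 genes outside the dim array -0.10, -0.23 and 0.14. The last comparison has the same mice in both fits, so that its change of sign came with other genes and another channel scaling. *Lrp1*, a receptor that carries amyloid and lipoproteins, read 2.93, 2.22, 0.366 and 0.496 in MRL/lpr, 2.81, 2.29, 4.01 and 2.48 in Fn14ko and 4.88, 6.15, 4.46 and 5.69 in MRL/+. MRL/+ was above all 8 other mice. The log2 fold change of MRL/lpr against MRL/+ was -2.33 ± 0.68 (adjusted p = 0.240, and 0.0351 without the block), and -0.88 without the dim array (adjusted p = 0.0122), where MRL/lpr is 1 array and no block is used.

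Leukocyte adhesion and endothelial activation gave a median of -0.73, -1.02 and -0.19 over 7 genes, and of -0.06, -0.06 and -0.03 over the 20 genes measured outside the dim array, close to the medians of all genes there. *Cd34*, a sialomucin of capillary endothelium, read 1.41, 1.46, 0.328 and 0.472 in MRL/lpr, 1.92, 3.12, 3.91 and 3.84 in Fn14ko and 3.40, 4.67, 3.06 and 3.12 in MRL/+. Every MRL/lpr mouse was below all other mice, also outside the dim array, on which the probe was not well above background. Its log2 fold change was -2.22 ± 0.54 against MRL/+ (adjusted p = 0.160) and -2.03 ± 0.54 against Fn14ko (adjusted p = 0.276), and -1.14 and -1.18 without the dim array (adjusted p = 0.0201 and 0.0251). The last values come from a fit with no block and MRL/lpr on 1 array. *Ackr1*, a chemokine receptor of venules, was at 1.51, 1.27, 0.275 and 0.419 in MRL/lpr, 1.56 to 1.81 in Fn14ko and 2.37 to 3.13 in MRL/+. The groups did not overlap, but the probe was not well above background in either mouse of the dim array, which gave the lowest levels. With all mice, MRL/lpr against MRL/+ gave -1.94 ± 0.55 (adjusted p = 0.225). *Cxcl1*, a neutrophil chemokine, was well above background in all 4 MRL/lpr mice at 0.0937, 0.163, 1.74 and 2.71, in 1 Fn14ko mouse and in 0 MRL/+ mice. It read 0.01 to 0.0343 in Fn14ko and 0.01, 0.306, 0.01 and 0.185 in MRL/+, where 0.01 is the floor. MRL/lpr and MRL/+ thus overlapped, and the higher MRL/+ readings, both in Cy5, were not well above background. *Sele*, which encodes E-selectin, was well above background in no mouse.

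Of the integrin list, 1 of 6 genes had a spot valid in all 12 samples, *Itgam* of myeloid cells (chosen after its values were seen), with log2 fold changes of -0.02, 0.66 and -0.68. For caveolae and fenestrae the median over 3 genes was -0.36, -0.80 and 0.21, and -0.22, -0.43 and 0.34 over 5 genes outside the dim array. For Wnt signalling it was 0.34, 0.50 and -0.44 over 6 genes, and outside the dim array, over 16 genes, it turned to -0.15 in MRL/lpr against MRL/+ and was 0.24 and -0.38 in the other comparisons. In the Wnt list, which supports the barrier during development, the co-receptor gene *Lrp5* read 0.713, 0.976, 2.79 and 3.31 in MRL/lpr, 1.53 to 1.98 in Fn14ko and 4.57, 8.84, 3.95 and 6.50 in MRL/+. MRL/+ was again above all other mice, with MRL/lpr against MRL/+ at -1.83 ± 0.53 (adjusted p = 0.235, and 0.0300 without the block). The receptor gene *Fzd4* was at 0.223 to 0.673 in MRL/lpr, 0.0601 to 0.0922 in Fn14ko and 0.0506 to 0.344 in MRL/+. Its probe was not well above background on the dim array and in the Cy5 mice of MRL/+. MRL/lpr exceeded Fn14ko by 2.18 ± 0.71 (adjusted p = 0.154).

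In the basement membrane list the median over 3 genes was 0.64, 0.79 and -0.13, and over 11 genes outside the dim array 0.44, 0.78 and 0.04. *Lama5*, a laminin chain of the vascular basement membrane, read 0.562, 1.21, 0.582 and 0.546 in MRL/lpr, 0.150 to 0.312 in Fn14ko and 0.156 to 0.307 in MRL/+. MRL/lpr was above all other mice on both of its arrays, but the probe was not well above background in MRL/lpr replicate 4 and in the Cy5 mice of MRL/+, so that on the dim array this rests on 1 channel. Its log2 fold change was 1.72 ± 0.73 against MRL/+ (adjusted p = 0.294) and 1.85 ± 0.73 against Fn14ko (adjusted p = 0.276), and 2.16 and 2.03 without the dim array (adjusted p = 0.00311 and 0.00655). In that last fit MRL/lpr is 1 array and no block is used.

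Levels of markers of other cells are given beside these values, and in each of these lists 0 of the genes with a spot valid in all 12 samples (2 of the 8 choroid plexus markers, 3 of 7 for meninges and 2 of 4 for blood) passed the limma test in any comparison. The summed level of 8 choroid plexus epithelium markers was 38.2, 11.9, 7.88 and 27.8 in MRL/lpr, 5.48, 1.13, 0.838 and 0.544 in Fn14ko and 1.18, 2.59, 0.951 and 1.82 in MRL/+, so that MRL/lpr was highest without overlap. *Ttr*, the gene with the brightest probe signal of the list, was at 33.4, 10, 2.13 and 15.2 in MRL/lpr. All 8 markers were well above background on the brighter MRL/lpr array and in Fn14ko replicate 1, and 2 were on the dim array. Choroid plexus epithelium can express *Vcam1* and *Slc2a1* as well, and the part of these cells in the values above was not tested. The 7 meninges and fibroblast markers summed to 10.7, 4.71, 2.89 and 4.55 in MRL/lpr and to 2.43 to 3.12 in all other mice, with the brightest probe signal from *Dcn*. The 4 blood genes (brightest *Hba-a2*) summed to 148, 117, 36.7 and 14.1 in MRL/lpr, 43.7, 41.8, 75.6 and 22.9 in Fn14ko and 41.3 to 52.2 in MRL/+, and these groups overlapped. In the fit without the dim array, MRL/lpr is 1 array and no block is used. There, genes of these 3 lists were higher in MRL/lpr against both MRL/+ and Fn14ko, where 15.7% and 9.12% of all filtered genes were called in either direction. These were 5 of 6 measured choroid plexus markers and 4 of 7 meninges markers in each of the 2 comparisons, and 3 and 4 of 4 blood genes, with median log2 fold changes of 1.76 and 1.63 over the blood genes. The part of blood left in the vessels in these results was not tested either.

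The 13 pericyte and smooth muscle markers (brightest *Vtn*) summed to 15.6, 9.84, 5.88 and 8.68 in MRL/lpr, 8.11 to 11.7 in Fn14ko and 8.03 to 10.4 in MRL/+. The 12 astrocyte and endfoot markers (brightest *Mlc1*) summed to 18.4 to 30.0, 26.6 to 31.7 and 23.6 to 40.0 in the same order. These groups overlapped. The 8 T and B cell markers (brightest *Cd4*) summed to 1.35, 2.08, 4.17 and 5.29 in MRL/lpr, 0.771 to 1.05 in Fn14ko and 1.46, 3.17, 1.72 and 3.58 in MRL/+, so that Fn14ko was below all other mice. The 4 highest sums came from the dim array and the Cy5 mice of MRL/+, where only 2 or 3 of the markers were well above background. *Ms4a1*, a B cell marker, was well above background in no mouse. The 8 hippocampal neuron markers summed to 21.4 to 39.9, 28.6 to 39.3 and 44.4 to 51.5, with MRL/+ above all other mice. The lowest neuron sums, like the lowest astrocyte sums, came from the dim array. For microglia, 7 markers summed to 2.89 to 5.2 in MRL/lpr, 5.07 to 6.34 in Fn14ko and 6.49 to 8.58 in MRL/+, with MRL/+ again above all other mice. Of the 5 of them valid in all 12 samples, 4 were lower without overlap in MRL/lpr than in MRL/+ (16.1% of all filtered genes did not overlap), with a median log2 fold change of -1.02, and 0 passed the limma test with the array block. The lowest microglia sums, 2.89 and 3.5, were also those of the dim array, where 3 and 1 of the 7 markers were well above background, and without that array the median over the same 5 genes was -0.49. For oligodendrocytes, 5 markers summed to 6.15 to 15.8, 3.91 to 7.60 and 5.03 to 6.49 in the same order. The part of these cells in the values above was not tested.

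Genes with patterns most like *Cldn5* and *Pecam1* were sought over the 10 mice outside the dim array, among 17936 genes with a spot valid in those 10 and after the mean of each dye was removed. For *Cldn5* these were *Trnp1*, *A330023F24Rik*, *Sppl2b*, *Abcb4* and *Klhl17*, with a Pearson r of 0.956, 0.943, 0.939, 0.939 and 0.935. *Abcb1a* came next among the barrier genes, at rank 184 with r = 0.795. For *Pecam1* they were *Ildr2*, *Ntn4*, *LF194823*, *Armt1* and *Gna15*, with r from 0.986 to 0.994. *Icam1* followed *Pecam1* with r = 0.947, whereas *Tjp1* and *Vcam1* ran opposite to it with r = -0.970 and -0.920. All 4 of these probes lay at 0.596 to 1.05 times the negative-control median in the Cy5 mice of MRL/+. Mice of a phenotype also share arrays and a scan, so that the values of r are descriptions of these mice.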

How the data were processed

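Hippocampal RNA of 12 mice was measured on 6 Agilent 2-colour arrays. The authors hybridized mice of 1 phenotype in pairs and processed the scans with Agilent Feature Extraction 12.1. The deposited files hold a linear intensity for each of 44397 spots' foreground and background in each dye, with flags, not normalized between channels. They also hold the software's processed signal, background-subtracted and dye-normalized, which was used only as an alternative. Probe positions are given in the files on mm9; exons and UTRs were not annotated here. The gene names are those of the array's design.

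From these, the mean foreground was corrected by subtracting the median local background. Spots flagged as outliers, or whose foreground was less than 2 times their background, were left out. The 10877 spots valid in all 12 samples (8864 genes) were kept and scaled by the channel's median over them; a gene's value is the mean of its spots and probes. Genes without such a spot were read from an unfiltered version (29608 genes, floor of 1% of the same median). This use of 1 median for both versions was settled after the files had been opened. Log2 values were fitted with limma 3.58.1 in R 4.3.3 (all 12 samples, dye as a covariate, array as a random block, trended eBayes), with Benjamini-Hochberg adjustment over all genes of the fit and a threshold of 0.05; the estimated correlation within arrays was 0.71 (0.57 unfiltered). Where it came out negative, as it did without the dim array (-0.26 filtered, -0.57 unfiltered), it was set to 0, a rule made after seeing the counts. Mice of 1 array then count as independent. Differences are given ± SE. Exact permutation tests (4 mice against 4, two-sided) can reach p = 0.0286 at the lowest. Replicates are separate mice, but 2 share each array.

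The 10 genes and all lists were chosen with earlier results of these data known. Named were the 10 genes, up to 3 genes of each pathway list past the threshold with or without the array block, the gene with the brightest probe signal of each cell type list, list genes well above background in no mouse, and the 5 genes most like *Cldn5* and *Pecam1*. *Itgam* was named outside this rule, after its values were seen; *Fas* and *Tnfrsf12a* check the genotype labels, and 4 other integrin genes are named as binding partners. The lists hold 206 genes, all found on the array; 1 gene each of the microglia and oligodendrocyte lists is not reported here and was left out of their sums. Alternatives concerned the block, dye, filter, floor, background, scaling, probes, array weights, left-out mice and the methods' t-test. The medians and figures were made with Python 3.11.15, numpy 2.4.6, pandas 2.3.3, scipy 1.17.1 and matplotlib 3.10.9.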

Additional observations from a re-analysis of the deposited data

How the results depend on the processing

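The number of barrier genes past the threshold was 0 in each comparison in most alternatives. In the order MRL/lpr against MRL/+, MRL/lpr against Fn14ko and Fn14ko against MRL/+, it was 1, 1 and 0 without the array block, 3, 3 and 7 with estimated array weights, 1, 1 and 5 without the dim array, and 0, 0 and 0 without the dim array and with the negative-control median subtracted. Leaving out 1 mouse gave 0, 0 to 3 and 0 to 1 (*Pecam1*, *Cdh5* and *Abcb1a* without MRL/lpr replicate 2, *Cdh5* without MRL/lpr replicate 3). These genes were read unfiltered, where 20535 of 29608 genes passed in MRL/lpr against Fn14ko without MRL/lpr replicate 2 and 173 in Fn14ko against MRL/+ without MRL/lpr replicate 3. Over all filtered genes the counts were 7, 4 and 0. They were 813, 353 and 46 without the block, 1450, 901 and 3414 with array weights (16533, 25188 and 21054 of the 29608 unfiltered genes), 2818, 1636 and 3785 without the dim array, and 2106, 366 and 755 with negative controls subtracted as well. Further counts were 11, 6 and 0 without the dye term, 0, 5 and 0 with spots well above background only, 0, 1 and 0 with the processed signal, 4, 2 and 0 with quantile and 0, 2 and 0 with loess normalization, 6, 10 and 0 with the median of all spots, and 0, 1 and 0 without the Cy5 mice of MRL/+. Over the 29608 unfiltered genes they were 106, 53 and 0, and 93, 33 and 0 with the 5% floor. The composite criterion gave 424, 341 and 527, and the methods' t-test after Benjamini-Hochberg adjustment 0, 0 and 8. Leaving out 1 mouse gave 4 to 29, 1 to 20 and 0 to 0. Why the counts moved was not tested, except that without the filter, or with fewer mice, other genes and samples entered the fit. Negative-control subtraction, with and without the dim array, the all-spot median and leaving out the Cy5 mice of MRL/+ were chosen after seeing the data.

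With the replicate number as a block in place of dye, 5, 1 and 0 filtered genes, 500, 1014 and 15 unfiltered genes (106, 53 and 0 with the dye term) and 0, 0 and 0 barrier genes passed. Same-numbered mice of different phenotypes had residual correlations of -0.64 to 0.37, so that the numbers do not pair the mice.

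Of 284 alternative values of the barrier genes in each comparison, 12, 13 and 18 changed sign. In MRL/lpr against MRL/+, leaving out the dim array gave 0.074 for *Cldn5*, -0.61 for *Ocln*, -0.64 for *Pecam1*, 0.056 for *Abcb1a* and -1.05 for *Icam1*. The all-spot median gave -0.27 for *Pecam1*, normexp 0.26 for *Cdh5*, the processed signal -0.35 for *Vcam1*, and quantile normalization -0.041 for *Icam1* and array weights -0.62 for *Icam1*. In MRL/lpr against Fn14ko, *Tjp1* was -0.19 with array weights, -0.13 without the dim array, -0.093 with the all-spot median and -0.15 without the dim array and negative controls, and *Pecam1* was -0.15 with the all-spot median. *Vcam1* was -0.70 with the processed signal, -0.42 with quantile and -0.37 with loess normalization, -0.10 with array weights, -0.19 with negative controls and -1.35 with the all-spot median. In Fn14ko against MRL/+, negative controls subtracted gave -0.024 for *Cldn5*, 0.85 for *Pecam1*, -0.024 for *Slc2a1* and 0.068 for *Icam1*. Together with the dim array left out they gave -0.29 for *Cldn5*, 0.26 for *Ocln*, 1.27 for *Pecam1*, -0.29 for *Slc2a1*, -0.19 for *Mfsd2a* and 0.031 for *Icam1*. The processed signal gave -0.044 for *Cldn5* and 0.39 for *Pecam1*, and array weights -0.076 for *Mfsd2a*. The cause of these reversals was not tested.
Leaving out 1 mouse gave -0.15 to 0.24 for *Cldn5* in Fn14ko against MRL/+, -0.14 to 0.73 for *Pecam1* in MRL/lpr against MRL/+, -0.14 to 0.36 for *Slc2a1* in Fn14ko against MRL/+, -0.16 to 0.50 for *Mfsd2a* in Fn14ko against MRL/+ and -0.13 to 0.35 for *Vcam1* in MRL/lpr against Fn14ko.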
